A study of Mus musculus with 6 samples.

Results

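The 10 genes described here encode the FOS and JUN families of the AP-1 transcription factor together with 3 further immediate early genes. They were taken from the deposited table by gene symbol, as Fos, Fosb, Fosl1, Fosl2, Jun, Junb, Jund, Egr1, Ier3 and Maff, and all 10 were among its 16880 genes. RNA was sequenced from 6 samples of ATDC5 cells, a mouse chondrogenic line, of which 3 received IL-1β at 10 ng/mL and 3 received the same IL-1β dose plus NP-G2-044, an inhibitor of the actin-bundling protein fascin, at 10 μmol/L. The methods give 24 h of treatment, describe the cells as chondrocytes and call the replicates biological, and the labels do not say whether the samples of a group came from separate cultures. If they did not, the p-values measure only the spread between these samples. That spread was small, with a common biological coefficient of variation, the variation beyond read sampling, of 2.33% in edgeR. The treatment label of the inhibitor group reads NP-G2-047, while the titles of the same samples read NP-G2-044. Every sample carried IL-1β, and a group without it was not analysed here, so each value below sets the samples given both agents, called the inhibitor samples, against those given the cytokine alone.

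AP-1 is a dimer of basic leucine zipper proteins. JUN proteins can pair with one another or with a FOS protein, FOS proteins need a JUN partner, and the dimer binds DNA in promoters and enhancers of genes for matrix-degrading enzymes, cytokines and growth control. IL-1β acts on cartilage cells through kinase cascades that raise the transcription of immediate early genes and phosphorylate their products, and AP-1 is among the factors through which it raises matrix metalloproteinases. The transcripts of this class are short-lived in many cells and often peak soon after a stimulus, so that a single late time point gives a level and not a time course.

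The promoter sequences of Jun, Maff and Fos are shown because the first of these genes rose with the second while the third stayed near the limit of detection. Each sequence is the 250 bases upstream of a RefSeq start on GRCm38.p6, in the direction of transcription, and Jun is on the minus strand. Capitals in Jun and Maff mark a match to the CRE-like motif TGACNTCA, an element bound by ATF, CREB and some AP-1 dimers, and capitals in Fos mark the TATA box TATAAA.
Jun (chr4:95052223-95052472): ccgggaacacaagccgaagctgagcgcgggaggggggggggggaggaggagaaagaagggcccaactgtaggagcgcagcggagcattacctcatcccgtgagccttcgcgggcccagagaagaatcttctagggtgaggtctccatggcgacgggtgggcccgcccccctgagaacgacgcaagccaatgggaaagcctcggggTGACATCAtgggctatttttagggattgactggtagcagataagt
Maff (chr15:79347270-79347519): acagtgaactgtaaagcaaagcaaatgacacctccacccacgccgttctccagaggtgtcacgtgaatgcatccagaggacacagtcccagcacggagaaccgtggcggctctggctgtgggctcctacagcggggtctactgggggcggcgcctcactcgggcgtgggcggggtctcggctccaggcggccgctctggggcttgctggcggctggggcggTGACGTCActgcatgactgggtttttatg
Fos (chr12:85473640-85473889): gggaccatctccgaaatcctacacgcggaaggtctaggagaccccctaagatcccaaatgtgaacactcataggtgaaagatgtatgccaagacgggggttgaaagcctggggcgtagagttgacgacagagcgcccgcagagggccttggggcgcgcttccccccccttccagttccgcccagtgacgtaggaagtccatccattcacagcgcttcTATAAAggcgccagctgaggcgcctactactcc
Promoters of the remaining members were searched in the same way. RefSeq windows were at hand for 8 of the 10 members, in 10 windows since Maff has 3 starts, and Fosl1 and Egr1 had no entry. The CRE-like motif stood in windows of 2 of these 8 members, Jun and Maff, and in 7.49% of 32851 promoter windows of the same length. The windows of Jund, which also rose, and of Junb had no match. The Fos window holds tgacgtag, which departs from the motif in its last bases only, so its lack of a match rests on the strict pattern. In Jun it ran from 45 to 38 bases before the start. At the Maff start shown it ran from 29 to 22 bases before the start, and another Maff start had a match from 45 to 38 bases before it. The remaining Maff start, at the upstream end of the gene, had no match. The AP-1 motif TGANTCA was in no member window and in 6.75% of all windows, and the CArG box, which binds SRF, was in none and in 1.47%. Sites more than 250 bases upstream, and any in Fosl1 or Egr1, were outside the search, so members cannot be said to lack them. The EGR motif GCGNGGGCG was in windows of 3 of the 8 members (Fosb, Fosl2 and Maff) against 4.70% of windows, and the κB site in 5 (Fos, Fosb, Fosl2, Ier3 and Maff) against 7.25%. TATAAA was in Fos alone among the members and in 12.4% of all windows. A member was counted if any of its windows matched, while the background is a share of single windows, so the 2 measures differ for Maff with its 3 starts. The background was also not matched for expression or for the share of G and C bases, which was 47.6% to 68.8% in the member windows. Whether the EGR and κB counts exceed those of windows with a like share was not tested. Both strands were read, and a match describes the letters of a window and not binding in these cells. The windows of Fosl2 and Jund started at RefSeq positions 671 and 1210 bases from the nearest GENCODE coding start.

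The 3′ UTRs of the members were also read for AU-rich motifs, which mark many short-lived transcripts. The motif TATTTAT was found in 8 of 10 members, all except Junb and Egr1, and in 31.2% of the 11572 tested genes with an annotated 3′ UTR. Ier3 had 5 copies of ATTTA in 613 bases, a density that 1.48% of tested genes reached. Fosl2 had the most copies, 8 in 4653 bases, and Fos had 4 in 815. Jun, Jund, Maff and Fosl1, which rose in the comparison below, and Fosl2, which fell, all carried TATTTAT.

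The members lie on 9 chromosomes of the mouse genome build GRCm38, the same assembly as mm10, and the coordinates and exon counts here are those of GENCODE vM21. Jun lies at chr4:95049034-95052222, Junb at chr8:84974484-84978718 and Jund at chr8:70698949-70700616, each with a coding transcript of 1 exon. Such a transcript was annotated for 2.63% of the genes tested. The FOS family lies at chr12:85473890-85477273 (Fos), chr7:19302696-19310051 (Fosb), chr19:5447547-5455946 (Fosl1) and chr5:32135801-32157842 (Fosl2). Ier3 lies at chr17:35821684-35822923 and Maff at chr15:79346621-79359076, and Egr1 is on chromosome 18. Exons of 4 members overlapped those of an antisense gene, and the sources used here do not state whether counting used the strand. The overlap covered 1163 bases between Fosl1 and Ccdc85b, 173 between Junb and Prdx2, 232 between Jun and Junos, and 877 between Jund and Gm11175. Ccdc85b and Prdx2 moved opposite to their partners, by -0.85 and -0.83 on the log2 scale, and the values of these 4 members are uncertain to the extent that such reads were shared.

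The IL-1β libraries held 16615824 to 16878164 reads each, the inhibitor libraries held 17529844 to 17735860, and no library stood apart from its group. The levels below are TPM, which are read counts divided by gene length and scaled per library, so that they can be compared between genes. The line was checked against marker genes. Of 14 chondrocyte markers 9 were in the table and 4 were tested, with a summed level of 17 to 18.4 TPM with IL-1β and 13.7 to 14.7 TPM with the inhibitor. Col2a1, the main cartilage collagen, averaged 0.217 and 0.04 TPM, and Matn1 was at 0 in all libraries. Sox9, the master factor of chondrocytes, rose from 6.44 to 11.4 TPM, and its partner Sox5 fell from 10.3 to 2.27 TPM. Of 8 fibroblast markers, all in the table, 5 of the 6 tested fell and 1 rose, and their sum was 1115 to 1161 TPM against 342 to 356 TPM, almost all from Col1a2, while Thy1 was at 0. Summed markers of the other cell types were below those of chondrocytes. Macrophage markers stood at 10.5 to 13.5 TPM against 4.60 to 5.26, almost all from Cd14, which averaged 11.4 and 4.89 TPM. The sums were 0.05 to 0.28 against 0.4 to 0.55 for endothelium, 2.87 to 5.09 against 0.36 to 0.74 for adipocytes, and 2.92 to 3.77 against 1.19 to 2.4 for skeletal muscle. The leukocyte marker Ptprc and the muscle marker Des were at 0 in all libraries. The part of these shifts in the results below was not tested, and in bulk RNA fewer expressing cells and less RNA per cell cannot be told apart.

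**Figure D1:**
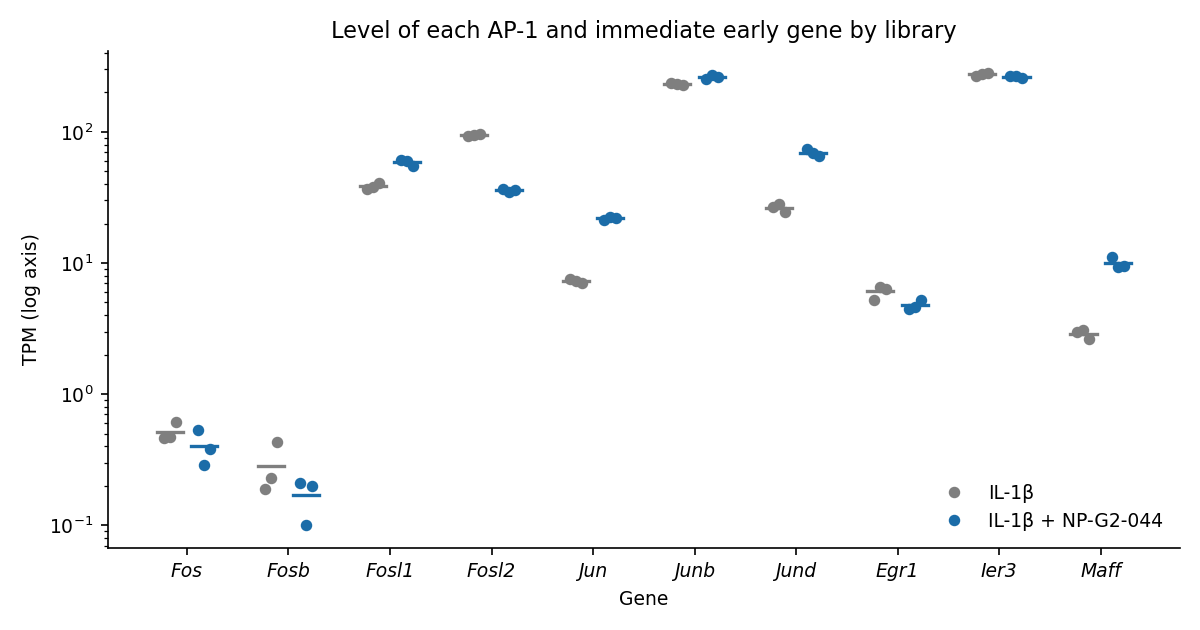
Level of each of the 10 members in TPM (log axis) in the 3 IL-1β and the 3 inhibitor (IL-1β plus NP-G2-044) libraries, 1 point per library. Jun, Jund and Maff sit higher and Fosl2 lower in all 3 libraries with NP-G2-044, while Fos and Fosb stay below 1 TPM in all 6.

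Jun, Jund and Maff rose 3.07-fold, 2.67-fold and 3.74-fold with NP-G2-044, Fosl2 was 2.57-fold lower, and Fosl1 rose 1.55-fold. Junb rose by 1.16-fold and Egr1 fell slightly, Ier3 did not pass the test, and Fos and Fosb had too few reads to be tested. Of the 8 members tested with edgeR's quasi-likelihood test and Benjamini-Hochberg adjustment over 11983 genes, 5 rose and 2 fell at an adjusted p under 0.05, where 40.2% of all genes tested rose, 39.8% fell and 80% changed in either direction. The share of members past this threshold, 87.5%, was therefore near the background. With the further cutoff of a log2 fold change over 1 in size, 3 members rose and 1 fell, or 50% of those tested, against 6.48% of all genes that rose, 10.1% that fell and 16.6% in either direction. The median size of the log2 fold change was 1.00 over the 8 tested members and 0.392 over all tested genes. The median with its sign was 0.42 over the members and 0.00 over all genes.

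**Figure D2:**
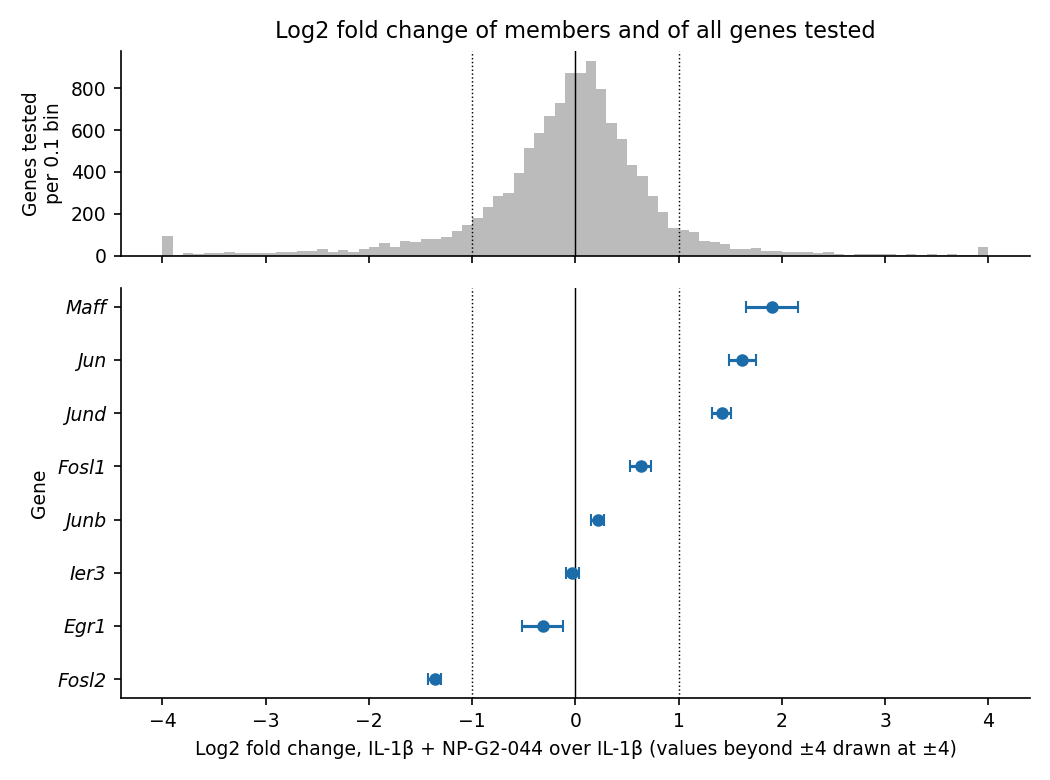
Log2 fold change of the 8 tested members in the inhibitor samples relative to IL-1β alone, with its 95% confidence interval from edgeR. Dotted lines mark a log2 fold change of 1 in size, and Maff, Jun, Jund and Fosl2 lie beyond them.

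Jun, the member whose product gave the family its name and which can activate its own gene, stood at 7.57, 7.24 and 7.09 TPM with IL-1β and at 21.15, 22.54 and 21.97 TPM with the inhibitor. The lowest library with the inhibitor was above the highest without it. The group means were 7.3 ± 0.246 and 21.9 ± 0.699 TPM (SD, n = 3), and the log2 fold change was 1.62 with an SE of 0.0644, or 3.07-fold (adjusted p = 4.86e-29, edgeR). In the order of all tested genes by size of change, 7.76% moved more than Jun did.

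Jund, the JUN protein that many cells hold without a stimulus, stood at 26.94, 27.95 and 24.55 TPM with IL-1β and at 73.43, 69.14 and 65.07 TPM with the inhibitor. Again the groups lay far apart. The means were 26.5 ± 1.75 and 69.2 ± 4.18 TPM (SD, n = 3), and the gene was 2.67-fold higher, with a log2 fold change of 1.42 and an SE of 0.0451 (adjusted p = 3.29e-28, edgeR).

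Junb, which in many settings acts against Jun and restrains growth, was by far the most abundant JUN transcript in both groups. Its levels were 234.53, 232.41 and 229.25 TPM with IL-1β and 253.72, 274.02 and 264.04 TPM with the inhibitor. The groups did not overlap, but the step between them was small beside those of Jun and Jund. The means were 232.1 ± 2.66 and 263.9 ± 10.2 TPM (SD, n = 3), and the log2 fold change was 0.22 with an SE of 0.0307 and a 95% interval of 0.15 to 0.28 (adjusted p = 1.13e-08, edgeR). Of all tested genes 69.4% changed more than Junb did.

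Among the FOS genes, Fosl2 (FRA-2) and Fosl1 (FRA-1), which lack the strong activation domain of FOS, moved in opposite directions. Fosl2 stood at 93.04, 94.84 and 96.44 TPM with IL-1β and at 36.88, 34.86 and 36.26 TPM with the inhibitor. All inhibitor libraries were far below all IL-1β libraries. The means were 94.8 ± 1.70 and 36.0 ± 1.03 TPM (SD, n = 3), and the log2 fold change was -1.36 with an SE of 0.0303 (adjusted p = 1.18e-40, edgeR). Fosl2 was the third most abundant member with IL-1β and the fifth with the inhibitor, and its place among all genes of the table went from the 90.4th to the 74.1st percentile of TPM.

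Fosl1 stood at 36.72, 37.9 and 40.98 TPM with IL-1β and at 61.38, 59.5 and 54.47 TPM with the inhibitor. The groups did not overlap. The means were 38.5 ± 2.20 and 58.5 ± 3.57 TPM (SD, n = 3), and the log2 fold change was 0.63 with an SE of 0.0504 and an interval of 0.53 to 0.73 (adjusted p = 1.67e-16, edgeR). It was the only member with counts that were not whole numbers, so part of its reads had been divided by the authors' estimator.

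Fos and Fosb, the rapidly induced members with strong activation domains, were almost silent in both groups. Fos stood at 0.46, 0.47 and 0.61 TPM with IL-1β and at 0.53, 0.29 and 0.38 TPM with the inhibitor, from 30 and 25 reads in all. Fosb stood at 0.19, 0.23 and 0.43 TPM against 0.21, 0.10 and 0.20 TPM, from 31 and 20 reads. For both genes the groups overlapped. Scaled by library totals, the ratio of pooled Fos reads was 0.792 with a 95% exact binomial (Clopper-Pearson) interval of 0.447 to 1.39. The same ratio for Fosb was 0.613 with an interval of 0.331 to 1.11, and these intervals cover counting error only. A change of Fos or Fosb within these intervals was not detectable at this depth. Without the filter on low counts, edgeR gave log2 fold changes of -0.33 for Fos (SE 0.427, adjusted p = 0.511) and -0.69 for Fosb (SE 0.448, adjusted p = 0.177).

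The family totals show the same shifts as a change of makeup. The FOS genes together stood at 130.4, 133.4 and 138.5 TPM with IL-1β and at 99.0, 94.8 and 91.3 TPM with the inhibitor. The JUN genes together stood at 269.0, 267.6 and 260.9 TPM and at 348.3, 365.7 and 351.1 TPM. The summed FOS level was thus lower and the summed JUN level higher in every library with the inhibitor. The summed means were 134.1 ± 4.07 and 95.02 ± 3.85 TPM for FOS and 265.8 ± 4.35 and 355.0 ± 9.35 TPM for JUN (SD, n = 3), and the ratio of JUN to FOS transcripts rose from 1.98 ± 0.0913 to 3.74 ± 0.193. Each of these differences had an exact two-sided permutation p of 0.1, the smallest that 3 samples against 3 allow, so none can reach 0.05. The lead of JUN over FOS with IL-1β depends on gene lengths. In pooled reads Fosl2 alone had 16856 with IL-1β, above Junb, Jund and Jun together, at 11572, 2194 and 677. With the inhibitor Junb alone had 14127 reads, above Fosl2 and Fosl1 together, at 6888 and 2857.

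Within the FOS family the gene with the higher TPM changed, while the gene with more reads did not. Fosl2 made up 70.7% ± 0.909 of FOS family TPM with IL-1β and 37.9% ± 1.57 with the inhibitor, and Fosl1 made up 28.7% ± 0.770 and 61.5% ± 1.63 (SD, n = 3). The ratio of Fosl1 to Fosl2 was 0.406 ± 0.0162 with IL-1β and 1.62 ± 0.108 with the inhibitor, and this order of TPM was the same in all libraries of a group and turned between the groups. In reads, which are not divided by length, Fosl2 stayed above Fosl1 in all 6 libraries, at 16856 pooled reads against 1755 with IL-1β and 6888 against 2857 with the inhibitor. The lead of Fosl1 thus rests on gene lengths whose source is not stated, and on CPM its share rose by 19.8 percentage points in place of 32.8. Within the JUN family Junb stayed the leading gene, at 87.3% ± 0.523 and 74.3% ± 1.29. Jund rose from 9.96% ± 0.520 to 19.5% ± 1.38 and Jun from 2.75% ± 0.0593 to 6.16% ± 0.0927 of JUN family TPM. Libraries of the groups did not overlap in any of these 5 shares, each again with an exact permutation p of 0.1. These are shares of transcripts, and the proteins and dimers were not measured.

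**Figure D3:**
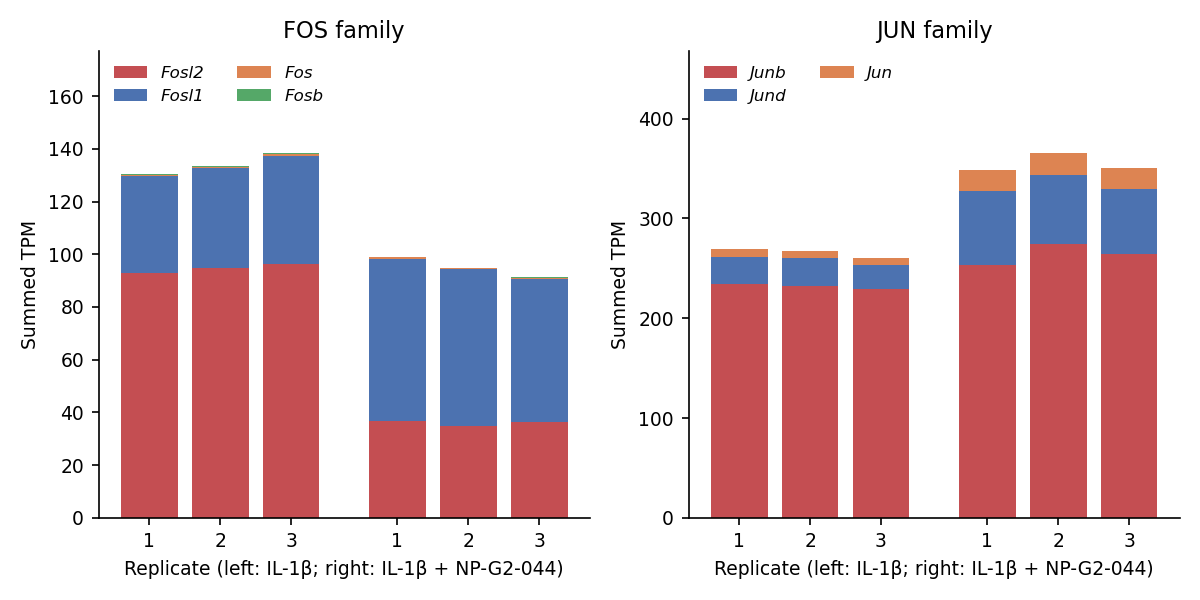
Makeup of the FOS family and of the JUN family in each of the 6 libraries, as TPM stacked by gene from 0. In TPM Fosl2 is the larger part of the FOS bars with IL-1β and Fosl1 with the inhibitor, and Junb leads every JUN bar.

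Egr1, a zinc finger factor induced through SRF and its ETS partners, was low and fell slightly. Its levels were 5.22, 6.61 and 6.37 TPM with IL-1β and 4.46, 4.58 and 5.22 TPM with the inhibitor. The groups met at 5.22 TPM, the lowest library of the first and the highest of the second. The means were 6.07 ± 0.743 and 4.75 ± 0.409 TPM (SD, n = 3), and the log2 fold change was -0.32 with a 95% interval of -0.52 to -0.12 (adjusted p = 0.0035, edgeR).

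Ier3, which encodes a short-lived regulator of survival and stress signalling and is not known as a DNA-binding factor, was the most abundant member with IL-1β and level with Junb with the inhibitor. Its levels were 268.66, 274.95 and 279.64 TPM with IL-1β and 268.21, 267.5 and 256.4 TPM with the inhibitor. The gap between the groups was the smallest step in these values, between 268.21 and 268.66 TPM. The means were 274.4 ± 5.51 and 264.0 ± 6.62 TPM (SD, n = 3). On counts the log2 fold change was -0.03 with an SE of 0.0321 and an interval of -0.09 to 0.03, and it did not pass the test (adjusted p = 0.385, edgeR). Of all tested genes 95.5% changed more.

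Maff, a small MAF protein that lacks an activation domain and pairs with CNC factors such as NRF2, had the largest fold change of the 8 tested members. It stood at 2.96, 3.06 and 2.61 TPM with IL-1β and at 11.13, 9.28 and 9.52 TPM with the inhibitor. Every inhibitor library was more than 3 times as high as every IL-1β library. The means were 2.88 ± 0.236 and 9.98 ± 1.01 TPM (SD, n = 3), and the log2 fold change was 1.90 with an SE of 0.126, or 3.74-fold (adjusted p = 1.07e-19, edgeR). Of all tested genes 5.67% changed more.

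Over the 8 tested members the TPM of the groups did not overlap for 7, all but Egr1, and for 79.4% of all tested genes. In the order of levels with IL-1β, from Ier3 and Junb through Fosl2, Fosl1, Jund, Jun, Egr1 and Maff to Fos and Fosb, the ranges of neighbours were apart at each step. With the inhibitor the order was Ier3, Junb, Jund, Fosl1, Fosl2, Jun, Maff, Egr1, Fos and Fosb, and only Ier3 and Junb had overlapping ranges. Jund and Fosl2 had exchanged places around Fosl1, and Maff had passed Egr1.

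The other leucine zipper genes that can pair with AP-1 proteins or are related to them rose more often than they fell. Of 21 such genes 16 were tested, of which 12 rose and 2 fell at an adjusted p under 0.05 (87.5%, against 80% of all genes), and 7 rose and 0 fell past both cutoffs (43.8% past both, against 16.6% of all genes). Their median log2 fold change was 0.71. The members, this list and those below were chosen with earlier results of these data known. Shares above the background are therefore not independent of those results. Atf3, a stress-induced partner of JUN proteins, rose from 7.97 ± 0.504 to 303.2 ± 5.54 TPM (SD, n = 3), or by 5.28 on the log2 scale. Ddit3, the stress factor CHOP, rose from 65.4 ± 3.95 to 1226 ± 40.1 TPM, a log2 fold change of 4.05. Atf4, the main factor of the integrated stress response, rose by a log2 fold change of 2.30, and Atf6, a sensor of unfolded proteins, by 1.88. Atf2 and Creb1 did not pass the test, with log2 fold changes of -0.07 and 0.01. The summed level of the list was 584 to 618 TPM with IL-1β and 2886 to 2995 TPM with the inhibitor.

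Other immediate early genes went both ways. Of 40 genes 35 were tested, of which 18 rose and 12 fell at an adjusted p under 0.05, with 8 higher and 5 lower past both cutoffs. These are 85.7% past the adjusted p, against 80% of all genes, and 37.1% past both cutoffs, against 16.6%. Their median log2 fold change was 0.18. Plk2 and Plk3, polo-like kinases induced by stress, rose from 14.4 to 138.7 and from 7.73 to 55.9 TPM, log2 fold changes of 3.30 and 2.89. Klf2 rose by 1.94 and Rhob, a GTPase that acts on the actin cytoskeleton, by 1.68. The largest falls among genes averaging at least 1 TPM were those of Zfp36l1, which binds AU-rich motifs and speeds RNA decay, from 160.9 to 38.8 TPM, a log2 fold change of -2.02, and of Ccn2, a matricellular factor, from 1.64 to 0.4 TPM, a log2 fold change of -1.99. The kinase gene Sgk1 fell by 1.38 and Ier5l by 1.20 on the same scale. The EGR co-repressors Nab1 and Nab2 fell by 0.44 and 0.38, inside the fold cutoff.

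The kinases upstream of AP-1 and the cofactors of SRF had a median size of log2 fold change of 0.281, against 0.392 over all genes tested. Of 31 genes 30 were tested, of which 9 rose and 14 fell at an adjusted p under 0.05 (76.7%, against 80%), and 1 rose and 3 fell past both cutoffs (13.3% past both, against 16.6% of all genes). The median log2 fold change was -0.07. Map3k8, which encodes the kinase TPL2, fell from 3.09 to 0.273 TPM, a log2 fold change of -3.44. Map2k6, an activator of p38, fell from 12.7 to 2.70 TPM, a change of -2.37, and the ETS factor gene Elk3 from 44.2 to 16.2 TPM, a change of -1.41.

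Genes described as AP-1 targets did not share a direction. Of 27 genes 18 were tested, of which 8 rose and 8 fell at an adjusted p under 0.05 and 3 rose and 6 fell past both cutoffs. That is 88.9% past the adjusted p, against 80% of all genes, and 50% past both, against 16.6%. The median over the list was 0.02 on the log2 scale. Hmox1, the heme-degrading enzyme, rose from 84.7 to 764.1 TPM, a log2 fold change of 3.20, Vegfa by 1.68 and the cytokine gene Lif by 1.26. Spp1, which encodes osteopontin, fell from 90.8 to 6.76 TPM, a log2 fold change of -3.72, the chemokine gene Ccl2 from 690.4 to 124.1 TPM, a change of -2.45, and Timp1, a metalloproteinase inhibitor, by 1.03. Il6 fell from 3.24 ± 0.548 to 1.39 ± 0.348 TPM (SD, n = 3), with -1.18 as its log2 fold change (adjusted p = 7.57e-05, edgeR). Mmp3 had 68 pooled reads with IL-1β and 2 with the inhibitor, a scaled ratio of 35.8 with an exact binomial interval of 9.53 to 301.5. Mmp13 had 25 and 3 reads, a ratio of 8.77 with an interval of 2.68 to 45.4, and stayed below the filter, and both intervals cover counting error only. The last list, of 9 genes, held the small MAF genes Mafg and Mafk with their partners and related regulators, and 7 were tested. At an adjusted p under 0.05, 3 were higher and 3 lower (85.7%, against 80% of all genes), with a median of -0.05. Mafg and Mafk were both among the higher genes and were also in the list of AP-1 partners. Mafk rose by a log2 fold change of 1.62, Mafg by 0.74 and Nfe2l1, a CNC factor that controls proteasome genes, by 1.30. Nfe2l2, which encodes the CNC factor NRF2, fell from 82.1 to 57.85 TPM, a log2 fold change of -0.47. Keap1 and Bach2 also fell, with changes of -0.46 and -0.43, and Bach1 did not pass the test.

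**Figure D4:**
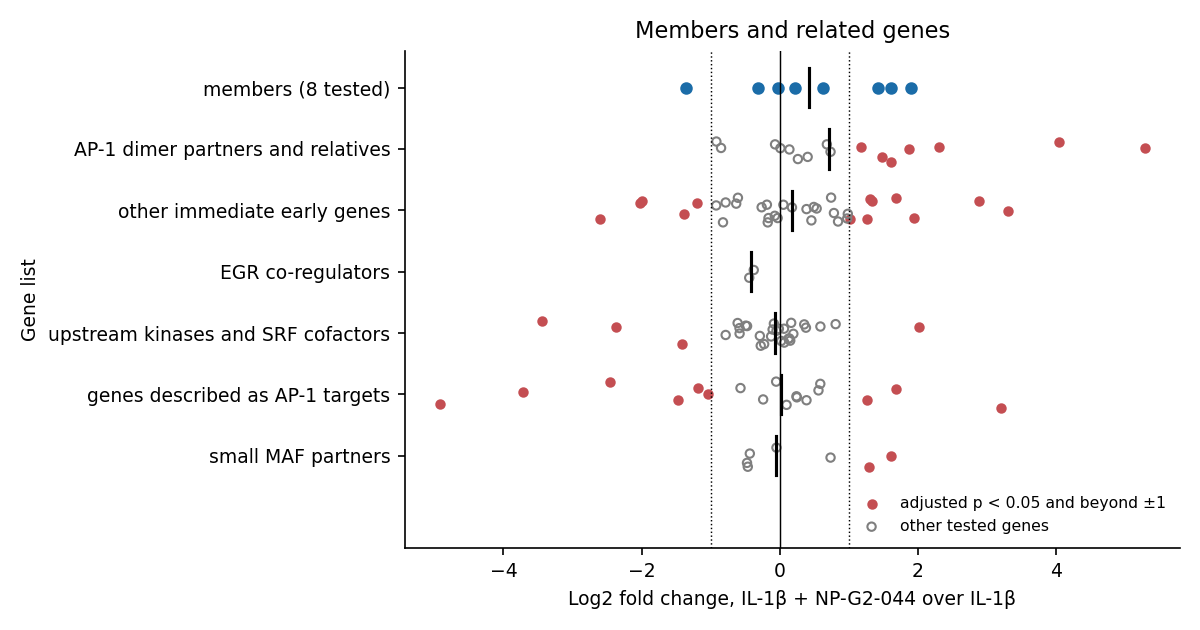
Log2 fold change, inhibitor samples relative to IL-1β alone, of the 8 tested members and of the tested genes of 6 related lists, 1 point per gene, with a black bar at each list's median. Red points passed both cutoffs, and their number among the AP-1 partners was 7, all to the right of the line at 1.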

How the data were processed

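The 6 samples of ATDC5 cells were grouped by their titles, and the 24 h of treatment is from the methods. Per the labels, the submitters' processing notes name cutadapt, HISAT2 2.0, StringTie and the build mm10, and the annotation, the strand of counting and how gene lengths were set are not stated in the sources used here. The authors deposited 1 table with expected counts, which are estimated reads per gene with no normalization, and TPM and FPKM, which the authors scaled by gene length and per library. Neither FPKM nor the group means made by the authors entered any step, and 0 columns of per-sample values lacked a sample.

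Counts, of which 10.17% to 11.06% per library were not whole, were rounded, filtered with filterByExpr (minimum count 10), normalized with TMM and tested in edgeR 4.0.16, by its quasi-likelihood test, in R 4.3.3 (robust, no covariates), with Benjamini-Hochberg adjustment over 11983 genes. Members were not adjusted on their own. Family sums and shares of TPM were compared by exact permutation over the 20 splits of 3 and 3. The edgeR, DESeq2 and limma-voom fits were tested on simulated counts, and the other steps were not. The members and lists were chosen with earlier results of these data known. From each list, up to 4 genes per direction were named, those with the largest changes past both cutoffs, with no overlap between groups and at least 1 TPM on average, plus Mmp3, Mmp13 and Il6. Other list genes were named after their values were seen. Same-numbered replicates correlated by -0.0934, -0.0236 and 0.0259 in their deviations from the group means, and the other pairs by -0.107 to 0.129. These values show no sign of pairing by number, but with 3 samples per group they cannot exclude it. Alternatives were other scalings, DESeq2 1.42.0, limma 3.58.1 with voom or on log2(TPM + 1) and log2(TPM + 0.1), other filters, a replicate block, a test against a fold change of 2, sums of CPM, and leaving out each library.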

Additional observations from a re-analysis of the deposited data

How the results depend on the processing

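Among the recomputed values, 416 kept their direction and their side of the threshold, or stayed near their size, 19 moved and 3 lost their call. When the test was made against a fold change of 2, Fosl1 (0.63), Junb (0.22) and Egr1 (-0.32) were no longer called (adjusted p = 1 for each, edgeR), which left 3 members higher and 1 lower. The filter of at least 10 CPM in 3 libraries removed Egr1 and Maff and left 1 member lower. It also left 5 other immediate early genes higher and 3 lower past both cutoffs, 0 upstream kinases higher and 3 AP-1 targets lower. On log2(TPM + 1) 3 other immediate early genes were lower and 0 upstream kinases higher. Of the AP-1 partners 1 was lower without the filter and 1 without IL-1β replicate 1, where 0 to 1 was lower over all libraries left out. Summed as CPM, which do not correct for length, the differences (IL-1β plus NP-G2-044 minus IL-1β) kept their direction, at -186.5 for the FOS family, 137.4 for the JUN family and 1.52 for their ratio, and in percentage points at 19.8 for the share of Fosl1, -19.9 for Fosl2, 5.02 for Jun, -17.3 for Junb and 12.3 for Jund. With single libraries left out, the log2 fold changes were 0.60 to 0.68 for Fosl1, -1.37 to -1.34 for Fosl2, 1.59 to 1.65 for Jun, 0.19 to 0.25 for Junb, 1.36 to 1.46 for Jund, -0.41 to -0.26 for Egr1 (highest adjusted p = 0.0319, edgeR), -0.04 to -0.01 for Ier3 and 1.81 to 1.96 for Maff. With the replicate block, which the check of pairing did not support, Jun had a log2 fold change of 1.62, 5 members were higher and 2 lower, and no member's call changed. Over all genes the calls past both cutoffs were 776 higher and 1211 lower, against 514 and 802 on log2(TPM + 1) and 484 and 680 with the 10 CPM filter, and the genes past the adjusted p went from 9584 to 1473 in the test against a fold change of 2. The cause of these differences was not tested beyond the number of genes each filter leaves. Depth limits Fos, Fosb and Mmp13, whose reads stayed below the filter.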

Other observations

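Several immediate early genes that are induced strongly in other cells had few reads in both groups, and were named after their values were seen. Egr3, a relative of Egr1, had 29 pooled reads with IL-1β and 3 with IL-1β plus NP-G2-044. Egr2 had 8 and 10 reads, Npas4, a neuronal activity factor, 16 and 4, and Egr4 0 and 2. None of these 4 genes passed the filter on low counts. Arc, a synaptic immediate early gene, had 83 and 14 pooled reads and a log2 fold change of -2.61 with an SE of 0.343 (adjusted p = 1.59e-09, edgeR, 3 against 3 libraries), and was lower in all 3 libraries with the inhibitor, at 0.16, 0.16 and 0.13 TPM against 1.1, 0.76 and 0.94 TPM.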
